A study of Mus musculus with 20 samples.

Results

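The phagocyte NADPH oxidase was described here through 6 genes, Cybb, Cyba, Ncf1, Ncf4, Rac2 and Hvcn1, chosen by symbol among the 24421 genes counted in bone marrow neutrophils. All 6 passed the filter on low counts that left 14030 genes for testing. Bulk RNA-seq was performed on 20 libraries in 4 groups of 5, made from neutrophils that had been enriched by magnetic negative selection. The groups crossed genotype with topical imiquimod (IMQ), a Toll-like receptor agonist that induces lupus-like disease in mice, and the study asked how neutrophil Bmal1, a core gene of the circadian clock, modifies that disease. All mice were female. WT mice were purchased C57BL/6J animals without floxed alleles or Cre. Bmal1 Mye-/- mice, called KO as in the labels, carried floxed Bmal1 on both alleles with a Cre recombinase at Lyz2, were bred in-house, and lose the gene in myeloid cells in general, not in neutrophils alone. IMQ mice received a 5% cream on the ears 3 times per week for 6 weeks, starting at 8 to 10 weeks of age, while the age of the untreated mice was not given. All mice were killed in the morning, so the clock was sampled in a single phase. Purchase and breeding, and Cre itself, cannot be told apart from the loss of Bmal1.

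The oxidase moves electrons from NADPH across the phagosomal or plasma membrane to oxygen, and the superoxide it makes feeds the respiratory burst with which neutrophils kill microbes. Its catalytic core is a membrane cytochrome of a large and a small chain, and cytosolic organizer and regulator subunits together with a Rac GTPase join it when the cell is activated. A proton channel carries out protons to balance the exported electrons. Loss of a subunit causes chronic granulomatous disease, and in mice loss of organizer function is known to worsen autoimmunity.

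None of the 6 genes passed the test for IMQ in WT, IMQ in KO, genotype without IMQ, genotype under IMQ, or the interaction of genotype and treatment (edgeR quasi-likelihood test, adjusted p by the Benjamini-Hochberg method over all 14030 genes, threshold 0.05). At an unadjusted p under 0.05, the same test gave 1 of 6, Ncf4 with IMQ in WT, and 0 in the 4 other contrasts. Over all genes that share was 22.3% with IMQ in WT, 39.3% with IMQ in KO, 2.19% between untreated genotypes, 19.9% between IMQ-treated genotypes and 5.14% in the interaction. DESeq2 called 0 of 6 in each of the 5 contrasts too. When the effects of IMQ in the 2 genotypes were averaged, a contrast added after the values were seen, Ncf4 rose by a log2 fold change of 0.27 (SE 0.09, adjusted p = 0.029) and the other 5 genes did not pass. In that contrast 2 of the 6 had an unadjusted p under 0.05, against 44% of all genes. The spread between libraries was wider under IMQ in both genotypes for all 6 genes, and several of them were low in a pair of IMQ libraries.

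The labels were checked first. Arntl, the files' name for Bmal1, ranged from 0.895 to 1.71 CPM (each read count relative to its library total, adjusted by TMM factors) in untreated WT and from 0.468 to 1.1 CPM in untreated KO, and was lower in KO by a log2 fold change of -0.90 (edgeR adjusted p = 1), short of the threshold. Lyz2, where Cre is inserted, was lower in KO without IMQ (log2 fold change -6.4, edgeR adjusted p = 1.47e-09), with no overlap between the genotypes. Under IMQ, Arntl ranged from 0.562 to 1.87 CPM in WT (mean 1.11) and from 0.337 to 1.52 CPM in KO (mean 0.702), so the genotypes overlapped with and without IMQ. In the library labelled KO IMQ replicate 1, Arntl was 1.52 CPM, the highest of its group and within the WT range, while Lyz2 was 85.7 CPM, within the KO range. Reads on genes numbered 30782166 to 92613500 per library, so that counting error was small beside the spread between libraries. The summed level of 9 neutrophil markers was 70500 to 154000 CPM, against 4.88 to 26 CPM for 9 B-lineage markers, and none of these genes was at 0 throughout any group. Ly6g has no row in the files.

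A pair of IMQ libraries, below called those that stood apart, was picked after the data were seen for the lowest neutrophil marker sum of their groups. KO IMQ replicate 5 was not picked, though its sum of 106000 CPM was near that of WT IMQ replicate 3. KO IMQ replicate 1 had the lowest neutrophil marker sum of all, 70500 CPM against 106000 to 144000 in the other 4 libraries of its group, the highest monocyte sum (2260 CPM against 641 to 1220, 7 genes) and the highest progenitor sum (865 CPM against 145 to 464, 6 genes). WT IMQ replicate 3 had a neutrophil marker sum of 100000 CPM against 132000 to 154000 in its group, a monocyte sum of 961 CPM against 970 to 1520, and a progenitor sum of 411 CPM against 73.9 to 259. In both libraries, most of the progenitor sum came from Elane and Prtn3, which are also genes of neutrophil precursors. Both belong to the study's immature neutrophil score. In IMQ-treated KO they reached 345 and 497 CPM, against at most 21.2 CPM for Kit and 2.97 CPM for Flt3. In bulk RNA, fewer cells of a type and less RNA of a gene per cell cannot be told apart. Each contrast is therefore given with and without these libraries where a call differs. By the first principal component of all tested genes, WT IMQ replicate 5 (-37.1) lay among the untreated libraries (-57 to -7.63), away from the other WT IMQ libraries (19.5 to 92.5). Without it, none of the 6 genes passed with IMQ in WT, and 1989 of all genes did in place of 554. KO IMQ replicate 2 (-10.7) also lay within the untreated range, away from the other KO IMQ libraries (38.4 to 79.6). Without that library, 4037 of all genes passed with IMQ in KO in place of 3292.

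The genes lie on 4 chromosomes in GRCm38 (mm10), with positions and exons taken by symbol from GENCODE M21. Cybb spans chrX:9435252-9487771 on the minus strand, with 15 merged exons, Cyba chr8:122424776-122432930 (minus, 7 exons) and Ncf1 chr5:134220053-134229625 (minus, 11 exons). Ncf4 spans chr15:78244801-78262580 (plus, 11 exons), Rac2 chr15:78559167-78572783 (minus, 7 exons) and Hvcn1 chr5:122206804-122242297 (plus, 8 exons). Merged exons of Hvcn1 share 1574 bases with those of Tctn1 on the opposite strand, and those of Ncf1 share 408 bases with Gtf2ird2, also on the opposite strand. The strand setting of the counting was not stated, so the reads of each pair cannot be told apart.

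RefSeq promoters (GRCm38.p6) matched 3 of the 6 genes, Cybb, Cyba and Ncf1. They are shown because BMAL1 with its partner CLOCK is known to bind the E-box CACGTG, and because myeloid transcription factors are known to act close to the starts of these genes. Each run below holds 120 bases before the RefSeq transcription start and the first 30 from it, on the minus strand, 5′ to 3′, and capitals mark the matches found. The windows are chrX:9469295-9469444 for Cybb, which begins inside the longer GENCODE gene, chr8:122432911-122433060 for Cyba and chr5:134229596-134229745 for Ncf1.
Cybb: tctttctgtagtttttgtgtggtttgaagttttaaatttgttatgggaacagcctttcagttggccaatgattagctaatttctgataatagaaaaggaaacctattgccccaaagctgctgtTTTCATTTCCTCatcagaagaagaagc
Cyba: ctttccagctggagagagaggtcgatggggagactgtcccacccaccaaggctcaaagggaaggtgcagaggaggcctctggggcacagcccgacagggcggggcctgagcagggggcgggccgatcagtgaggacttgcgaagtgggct
Ncf1: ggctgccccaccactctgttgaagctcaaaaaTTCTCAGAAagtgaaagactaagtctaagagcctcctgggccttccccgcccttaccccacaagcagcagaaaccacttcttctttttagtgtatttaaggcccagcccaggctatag

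Both strands of the full table windows, 250 bases before to 50 after the start, were searched for 4 motifs. CACGTG was in none of the 3 windows, and 7.15% of all 32851 promoters of that length held it. In Cybb, the capitals hold an ETS-IRF composite element, which begins 3 bases from the start and is read on the opposite strand, and overlapping it from 9 bases on GAGGAA, a core of PU.1 sites. Of all promoters, 2.72% held the former and 28.3% the latter. In Ncf1, the capitals mark TTCNNNGAA, a STAT element, at -88, which 8.3% of promoters held. The Cyba window held none of the 4. These matches describe the letters only, and no binding was measured.

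All 6 genes were well expressed. By mean CPM over the 20 libraries, Ncf1 (3030 CPM) ranked 22 of 24421 genes, Cybb (2460 CPM) 28, Rac2 (2190 CPM) 34, Cyba (971 CPM) 119, Ncf4 (663 CPM) 190 and Hvcn1 (228 CPM) 783. Levels of different genes were compared per kilobase of merged exons. On that scale Cyba was highest with a mean of 934 CPM per kilobase (range 648 to 1110), then Ncf1 with 826 (399 to 1110), Rac2 with 704 (373 to 849), Cybb with 424 (355 to 552), Ncf4 with 328 (225 to 447) and Hvcn1 with 64.1 (49.4 to 84.6). Over all 20 libraries, the ranges of adjacent genes in this order overlapped, except for Hvcn1. Within the untreated groups the middle of the order was separated as well, with Rac2 at 705 to 808 in WT and 709 to 782 in KO, Cybb at 362 to 435 and 365 to 406, and Ncf4 at 287 to 325 and 281 to 308 CPM per kilobase. Ncf1 and Rac2 overlapped in all 4 groups, and under IMQ Rac2 overlapped with Cybb and Cybb with Ncf4 in both genotypes. Dividing by the longest transcript instead gave the same order, from 1300 for Cyba to 81.4 CPM per kilobase for Hvcn1.

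**Figure D1:**
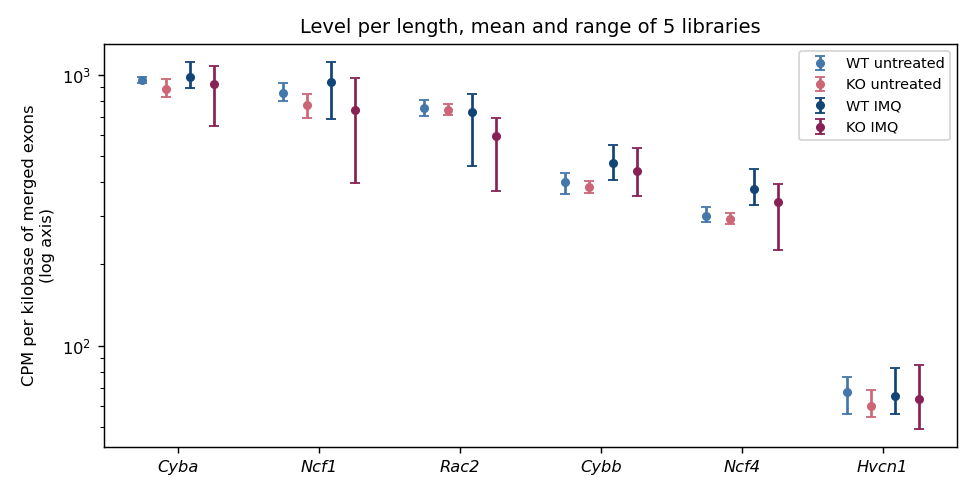
Level of each gene per kilobase of merged exons (CPM per kilobase, log axis) in the 4 groups, with points for the mean and bars for the range of 5 libraries. Hvcn1 lies below the other genes in every group, the ranges of Ncf1 and Rac2 overlap in every group, and Cybb and Ncf4 lie apart from Rac2 and from each other in the untreated groups.

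Cybb encodes gp91phox, the catalytic chain that carries electrons across the membrane. In replicates 1 to 5 of untreated WT, Cybb was at 2530, 2110, 2230, 2380 and 2480 CPM, and in those of IMQ-treated WT at 3200, 2670, 2470, 2970 and 2360 CPM. In untreated KO it was at 2270, 2230, 2170, 2120 and 2360 CPM, and in IMQ-treated KO at 2060, 2350, 3120, 2730 and 2490 CPM. In each genotype 3 of the 5 IMQ libraries exceeded every untreated library, while the others lay among or below them, so the groups overlapped. The log2 fold change with IMQ was 0.22 in WT (95% interval -0.03 to 0.47, edgeR adjusted p = 0.286) and 0.19 in KO (-0.06 to 0.44, adjusted p = 0.233). Between genotypes it was -0.07 without IMQ (-0.32 to 0.18, adjusted p = 1) and -0.10 under IMQ (-0.35 to 0.15, adjusted p = 0.592). That last value turned to 0.09 when counts were scaled by library size only. The averaged IMQ effect on Cybb was 0.21 (adjusted p = 0.0652), and it passed without WT IMQ replicate 5 (0.24, adjusted p = 0.042) or without KO IMQ replicate 1 (0.24, adjusted p = 0.0201). In those fits 5412 of 14273 and 4590 of 14194 genes passed.

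Cyba encodes p22phox, the small chain that stabilizes gp91phox and docks the cytosolic subunits. In untreated WT it was at 1000, 992, 1010, 994 and 966 CPM, and in untreated KO at 859, 931, 1000, 944 and 858 CPM. The IMQ libraries were at 1160, 1030, 928, 993 and 958 CPM in WT and at 674, 898, 1040, 1120 and 1050 CPM in KO. Untreated WT was narrow, with an SD of 17.9 CPM, while in KO the library labelled IMQ replicate 1 lay below all others, and all pairs of groups overlapped. With IMQ, the log2 fold change was 0.03 in WT (95% interval -0.21 to 0.27, edgeR adjusted p = 0.916), turning to -0.04 with library size only, and 0.06 in KO (-0.18 to 0.30, adjusted p = 0.733). Between genotypes, it was -0.11 without IMQ (-0.36 to 0.13, adjusted p = 1) and -0.09 with IMQ (-0.33 to 0.16, adjusted p = 0.641), the latter turning to 0.09 with library size only.

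Ncf1 encodes p47phox, the organizer that is phosphorylated on activation and bridges the cytosolic subunits to p22phox. In untreated WT it was at 2930, 3000, 3010, 3410 and 3330 CPM, and in untreated KO at 2530, 2800, 2980, 3100 and 2750 CPM. The IMQ libraries gave 4050, 3490, 2520, 3930 and 3160 CPM in WT and 1460, 2890, 2950, 3550 and 2710 CPM in KO. The lowest value of each IMQ group came from WT replicate 3 and KO replicate 1, and the groups overlapped. The log2 fold change with IMQ was 0.13 in WT (95% interval -0.24 to 0.50, edgeR adjusted p = 0.723) and -0.06 in KO (-0.44 to 0.31, adjusted p = 0.817), the latter turning to 0.02 with library size only and to 0.11 without KO IMQ replicate 1. Between genotypes, it was -0.15 without IMQ (-0.52 to 0.23, adjusted p = 1) and -0.34 under IMQ (-0.71 to 0.04, adjusted p = 0.273).

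Ncf4 encodes p40phox, which binds a phosphoinositide of the phagosome membrane and sustains oxidase activity there. In untreated WT it was at 607, 581, 581, 657 and 622 CPM, and in IMQ-treated WT at 902, 810, 667, 761 and 689 CPM. All 5 IMQ libraries of WT were above all 5 untreated ones, an arrangement that 3.11% of all genes tested also showed and that no other of the 6 genes did. In untreated KO it was at 592, 585, 623, 599 and 569 CPM, and in IMQ-treated KO at 454, 635, 799, 778 and 758 CPM. In KO, 4 of the 5 IMQ libraries were above every untreated library, and IMQ replicate 1 was below all of them.

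The log2 fold change of Ncf4 with IMQ was 0.33 in WT (95% interval 0.06 to 0.60, unadjusted p = 0.0181, edgeR adjusted p = 0.131) and 0.21 in KO (-0.06 to 0.47, adjusted p = 0.231). Without KO IMQ replicate 1, these were 0.32 (SE 0.089 in place of 0.13, adjusted p = 0.0395), the spread being shared by all groups in the model, and 0.34 (adjusted p = 0.0258), both past the threshold. Without both IMQ libraries that stood apart, they were 0.36 (adjusted p = 0.021) and 0.35 (adjusted p = 0.00684). Of all genes, 949 of 14194 passed in WT and 2190 in KO without KO IMQ replicate 1. Without both libraries, 899 and 4084 of 14165 did. The averaged effect of 0.27 was called in a contrast in which 32.7% of all genes passed, and 18.7% passed as higher. Its call was lost, at adjusted p values of 0.0538 to 0.0556 and log2 fold changes of 0.24 to 0.26, without WT untreated replicate 2, WT IMQ replicate 1, KO IMQ replicate 3 or KO IMQ replicate 5. It was also lost with RLE factors (0.25, adjusted p = 0.0525), with no filter (adjusted p = 0.0525) and with a replicate block (adjusted p = 0.051). Between genotypes Ncf4 differed by -0.04 without IMQ (-0.30 to 0.23, adjusted p = 1) and by -0.16 under IMQ (-0.43 to 0.11, adjusted p = 0.421), the latter turning to 0.02 with library size only.

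Rac2 encodes the Rac GTPase that predominates in blood cells and activates the assembled oxidase. In untreated WT it was at 2270, 2190, 2280, 2510 and 2490 CPM, and in IMQ-treated WT at 2500, 2310, 1420, 2630 and 2440 CPM. In untreated KO it was at 2210, 2300, 2430, 2350 and 2200 CPM, and in IMQ-treated KO at 1160, 2060, 2130, 2140 and 1720 CPM. All 5 IMQ libraries of KO were below all 5 untreated ones, as was so for 9.31% of all genes tested, while in WT only replicate 3 lay below the untreated range. The log2 fold change with IMQ was -0.06 in WT (95% interval -0.40 to 0.29, edgeR adjusted p = 0.885), turning to 0.07 without WT IMQ replicate 3, and -0.32 in KO (-0.67 to 0.03, adjusted p = 0.155). Between genotypes it was -0.03 without IMQ (-0.38 to 0.31, adjusted p = 1) and -0.30 under IMQ (-0.64 to 0.05, adjusted p = 0.288). Under IMQ, the genotype difference became -0.42 without WT IMQ replicate 3 (adjusted p = 0.0452) and -0.27 without both libraries that stood apart (adjusted p = 0.0397), each past the threshold. In those fits 3129 of 14263 and 1259 of 14165 genes passed, against 41 of 14030 with all libraries, so the gain in calls was general.

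Hvcn1 encodes the voltage-gated proton channel. In untreated WT it was at 273, 238, 260, 231 and 198 CPM, and in untreated KO at 208, 196, 245, 194 and 225 CPM. The IMQ libraries were at 294, 218, 237, 217 and 200 CPM in WT and at 207, 232, 302, 218 and 176 CPM in KO. The 4 groups covered much the same range, and neither library that stood apart was the lowest for Hvcn1. The log2 fold change with IMQ was -0.04 in WT (95% interval -0.33 to 0.24, edgeR adjusted p = 0.885) and 0.09 in KO (-0.19 to 0.37, adjusted p = 0.653). Between genotypes it was -0.17 without IMQ (-0.45 to 0.11, adjusted p = 1) and -0.04 under IMQ (-0.32 to 0.24, adjusted p = 0.873), the latter turning to 0.15 with library size only. Hvcn1 is also strongly expressed in B cells, whose 9 markers summed to 26 CPM at most, and Tctn1, which shares exon bases with it, ran with it at a ratio of Hvcn1 to Tctn1 counts of 1.53 to 1.71 in the 20 libraries. With the counts of both genes added, the 4 differences were -0.06, 0.07, -0.17 and -0.05.

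**Figure D2:**
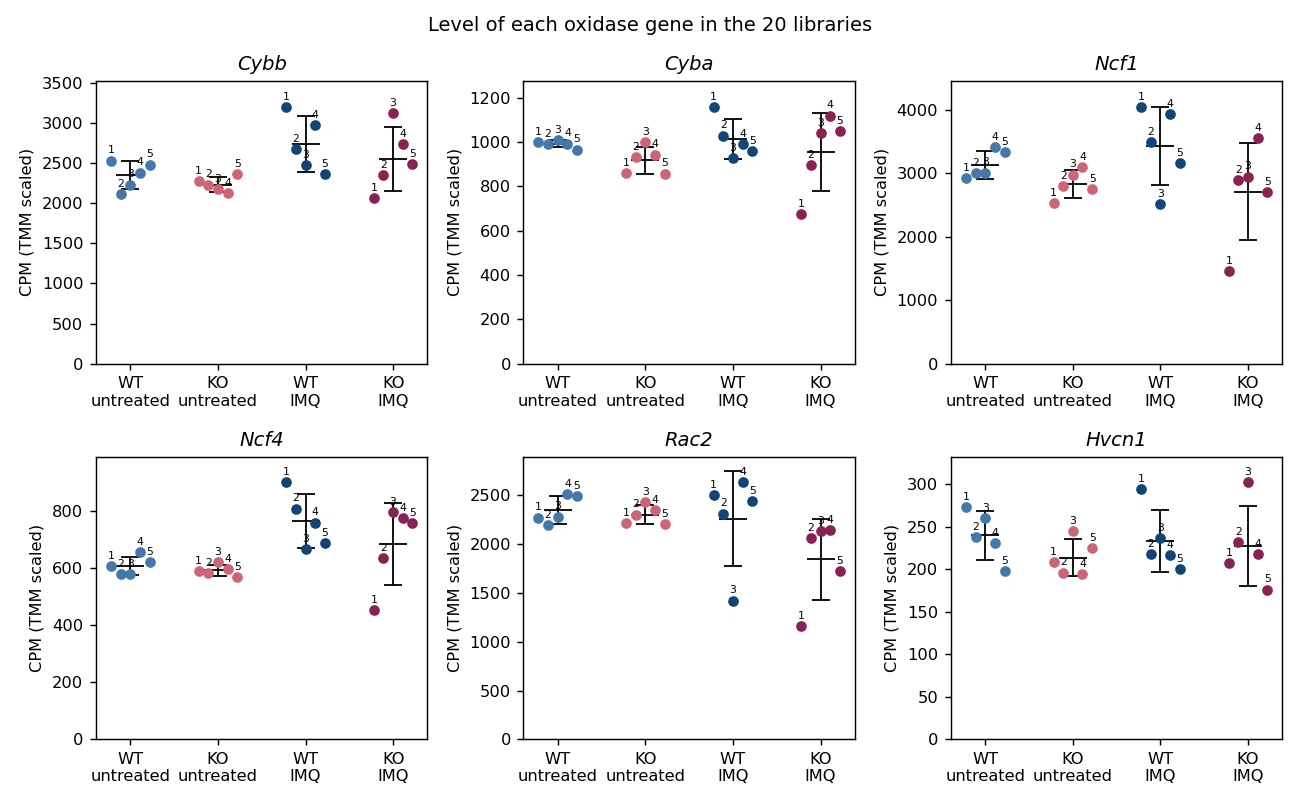
CPM of each gene in the 20 libraries (y axis from 0), with points for libraries, numbers for replicates, and black bars for the mean and SD of 5. Ncf4 in IMQ-treated WT (667 to 902) lies above untreated WT (581 to 657), Rac2 in IMQ-treated KO (1160 to 2140) lies below untreated KO (2200 to 2430), and the low points are mostly KO IMQ replicate 1 and WT IMQ replicate 3.

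Counted together, 0 of the 6 genes passed for IMQ in WT, where 3.95% of all genes tested did, and 0 of 6 passed in KO, where 23.5% did. The counts over all genes depended on single libraries. In WT the 554 calls became 48 to 193 without any 1 untreated WT library or without WT IMQ replicate 1, 2, 3 or 4, 343 without KO untreated replicate 5, 949 without KO IMQ replicate 1 and 1989 without WT IMQ replicate 5. In KO the 3292 calls became 1612, 1765, 2063, 2160 and 2190 without KO untreated replicate 4, KO IMQ replicate 5, KO untreated replicate 1, KO untreated replicate 2 and KO IMQ replicate 1. The median log2 fold change of the 6 genes was 0.08 in WT and 0.07 in KO, against 0.0269 and 0.0237 over all genes. In KO, Cybb at 0.30 (adjusted p = 0.0196) and Ncf4 at 0.31 (adjusted p = 0.0152) passed when counts were scaled by library size only, a scaling that moved the median of all genes to 0.16, and both also passed with limma on log2(CPM + 0.1), with adjusted p values of 0.0392 and 0.0345. Without both IMQ libraries that stood apart, Cybb at 0.29 (adjusted p = 0.0363) passed in KO as well, as did 4084 of 14165 genes.

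Between genotypes, 0 of the 6 genes passed without IMQ, where 0.207% of all genes did, and 0 of 6 under IMQ, where 0.292% did. The 41 calls behind the latter share became 3129 without WT IMQ replicate 3 and 280 without KO IMQ replicate 4, and 20 to 27 without WT IMQ replicate 1, 4 or 5 or KO IMQ replicate 1 or 3. All 6 fitted values were below 0 in both contrasts, with medians of -0.09 and -0.13 against -0.00388 and 0.0335 over all genes. Under IMQ, 8 of 9 neutrophil markers were also below 0 (median -0.24, none called), and the medians of 7 monocyte and 6 progenitor markers were 1.12 and 1.11 (none called). Of the monocyte markers 2 were below 0, Csf1r (-0.07) and Ly6c2 (-0.24). Of the progenitor markers 1 was, Kit, with means of 19.7 CPM in WT and 15.7 CPM in KO. Elane (76.2 and 164 CPM) and Prtn3 (98.9 and 214 CPM), on the progenitor list, are also genes of neutrophil precursors. Of 5 eosinophil markers, 2 were called, Prg2 at 2.54 and Epx at 2.97, but the list's median was 0.37. Siglecf, another of them, had means of 9.67 CPM in WT and 9.34 CPM in KO. The part of all these markers in the direction of the 6 genes was not tested. Of the 6 oxidase genes under IMQ, 4 were above 0 with scaling by library size only, which moved the median of all genes to 0.23. No gene separated the genotypes without overlap, with or without IMQ, an arrangement that 1.52% and 1.07% of all genes showed. The interaction ranged from -0.26 for Rac2 (SE 0.23, edgeR adjusted p = 0.659) to 0.13 for Hvcn1 (SE 0.19, adjusted p = 0.765). It passed for 0% of all genes, while 721 genes (5.14%) had an unadjusted p under 0.05 and DESeq2 called 0, and 1 gene passed without WT IMQ replicate 5. An effect of IMQ that differs between the genotypes was therefore not detected for any of the 6, and for Rac2 the 95% interval of the difference, -0.75 to 0.22, leaves a wide range.

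**Figure D3:**
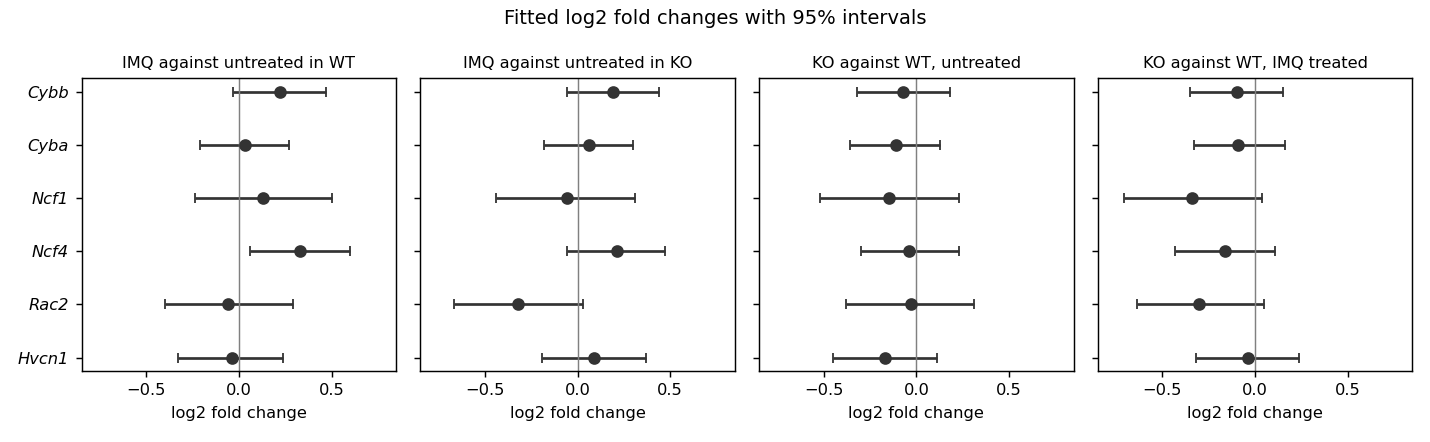
Fitted log2 fold changes of the 6 genes in 4 contrasts (x axis), with bars for the 95% interval. The interval of Ncf4 with IMQ in WT, 0.06 to 0.60, is the only one that does not contain 0, and its adjusted p over all genes was 0.131.

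The spread between libraries was wider under IMQ. The SD of log2 CPM in IMQ-treated WT was 4.74 times that of untreated WT for Cyba, 4.14 times for Rac2, 2.81 times for Ncf1, 2.37 times for Ncf4, 1.67 times for Cybb and 1.19 times for Hvcn1. In KO, the ratio was 7.12 for Ncf4, 6.2 for Rac2, 4.28 for Ncf1, 3.79 for Cybb, 3.11 for Cyba and 1.99 for Hvcn1. This widening was general: over 7021 genes with a mean of at least 10 CPM the median ratio was 2.28 in WT and 2.61 in KO, and it exceeded 1 for 91.1% and 93% of them. Hvcn1 was below both medians, and Rac2, Cyba, Ncf1 and Ncf4 were above both.

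The same libraries carried much of that spread. In KO IMQ replicate 1, log2 CPM was below the mean of its group by -0.83 for Ncf1, -0.63 for Rac2, -0.56 for Ncf4, -0.48 for Cyba and -0.29 for Cybb, but by only -0.11 for Hvcn1. In WT IMQ replicate 3, Rac2 was at -0.64 and Ncf1 at -0.43, whereas Cybb, Cyba and Ncf4 were between -0.19 and -0.12 and Hvcn1 was at 0.04. The lower neutrophil marker sums of both libraries stand beside these values, as do the higher monocyte sum of KO IMQ replicate 1 and the progenitor sums, and their part in the low oxidase genes was not tested.

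**Figure D4:**
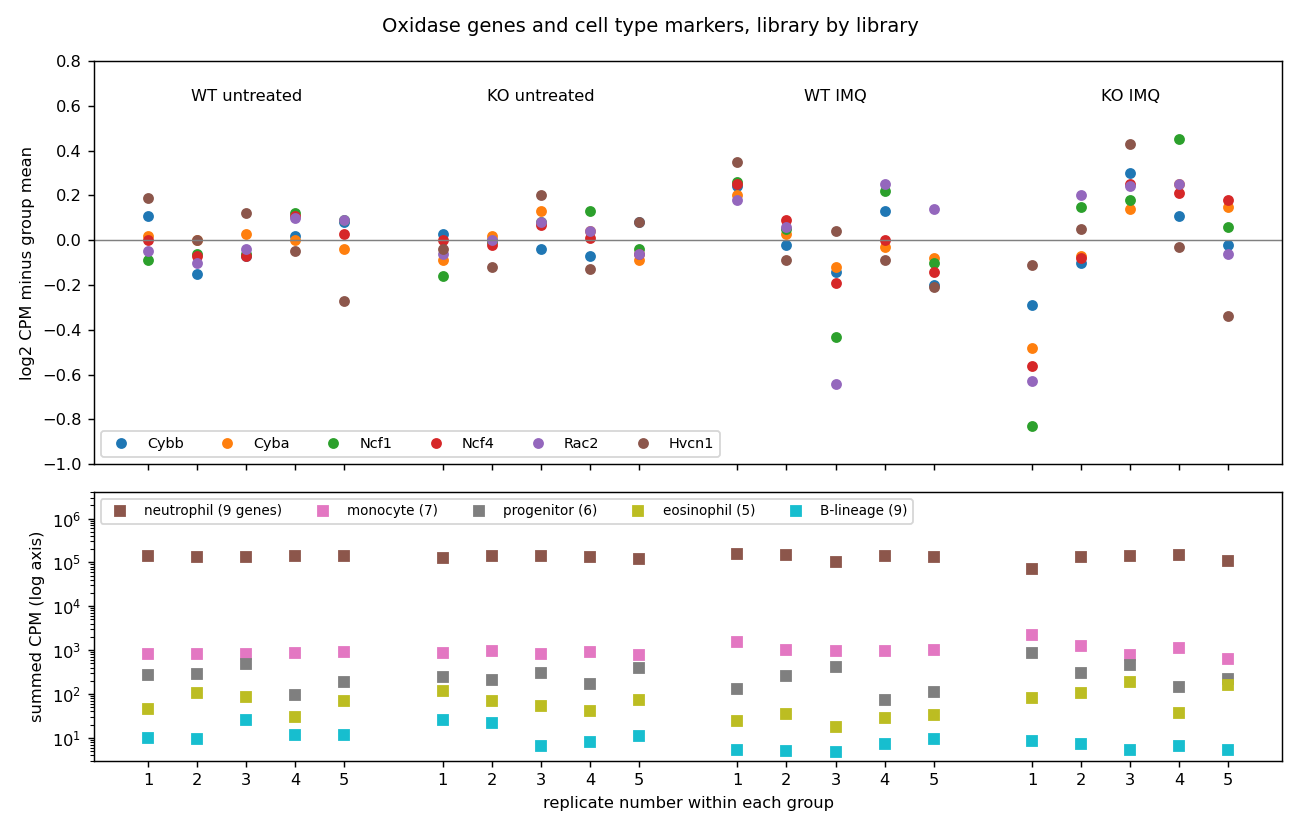
Upper panel, log2 CPM of each gene minus its group mean in the 20 libraries. Lower panel, summed CPM (log axis) of markers of 5 cell types in the same libraries. In KO IMQ replicate 1, 5 of the 6 genes lie between -0.83 and -0.29 and the neutrophil sum is 70500 CPM, and in WT IMQ replicate 3 Rac2 lies at -0.64.

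As a description over the 20 libraries, which share these shifts, the genes moved together to different degrees. With group means removed, Pearson's r of log2 CPM was 0.936 for Cyba with Ncf4, 0.909 for Ncf1 with Rac2 and 0.881 for Ncf1 with Ncf4, while r of Hvcn1 with the other 5 was 0.159 to 0.508. Ratios were taken per kilobase and within a library, where scaling cancels, and were not tested. The ratio of the cytosolic subunits Ncf1 to Ncf4 was 2.84 ± 0.106 (SD, n = 5) in untreated WT, 2.63 ± 0.179 in untreated KO, 2.46 ± 0.278 in IMQ-treated WT and 2.16 ± 0.334 in IMQ-treated KO. The ranges of this ratio overlapped between untreated and treated libraries, 2.66 to 2.96 and 2.08 to 2.85 in WT, 2.35 to 2.86 and 1.77 to 2.52 in KO. The ratio of Cybb to Cyba was 0.422 ± 0.0347 in untreated WT and 0.482 ± 0.0356 in IMQ-treated WT, and 0.437 ± 0.0443 and 0.483 ± 0.057 in KO, with overlapping ranges.

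Among 7020 genes, those most like each oxidase gene over the 20 libraries were found by Pearson's r of log2 CPM. For Rac2 they were Gpsm3 (r = 0.987), Rasgrp4 (0.986) and Cd53 (0.985), and for Ncf1 they were Ostf1 (0.97), Gmfg (0.969) and Gnai2 (0.966). For Ncf4 they were Rnf115 (0.973), Anxa1 (0.962) and Ceacam1 (0.954), and Ceacam1 (0.915) was also among those of Cybb, after Slc25a24 (0.931) and before Tesk2 (0.913). Cyba was most like Pglyrp1 (0.937) and Lcn2 (0.922), which encode neutrophil granule proteins, and Pdlim2 (0.918). Hvcn1 stood alone in this respect, since after Tctn1 (0.976), with which it shares exon bases, r dropped to 0.811 for Rcn1 and 0.78 for Galns.

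The oxidase partners on the list were Rac1, the widely expressed Rac GTPase, Rap1a, a GTPase found with the cytochrome, BC017643 (Cybc1), the chaperone of gp91phox, and Nrros, which promotes degradation of gp91phox. None of the 4 passed in the 5 contrasts fixed for the 6 genes, in which from 0% to 23.5% of all genes did. Rap1a came closest, with a mean of 86.8 CPM in untreated and 99.1 CPM in IMQ-treated WT (log2 fold change 0.19, edgeR adjusted p = 0.18). In KO its means were 85.2 and 99.1 CPM (0.22, adjusted p = 0.0639). The averaged effect on Rap1a, 0.20, passed (adjusted p = 0.0136) in the contrast added after the values were seen. In that contrast 32.7% of all genes passed, and 18.7% passed as higher. The Rap1a call was not examined with libraries left out. Rac1 had 0.13 in WT and 0.12 in KO, BC017643 0.15 and -0.12, and Nrros -0.38 and -0.31. Rac1 was at 252 to 334 CPM over the 20 libraries, and its mean was 295 CPM in IMQ-treated WT and 298 CPM in IMQ-treated KO.

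Of 14 kinases and Rac exchange factors that act upstream of assembly, 0 passed with IMQ in WT, where 3.95% of all genes did, and 2 fell in KO, where 9.04% of all genes fell. These were Syk, a tyrosine kinase of immune receptors, with a log2 fold change of -0.68 (SE 0.22, edgeR adjusted p = 0.0371), and Prex1, a Rac exchange factor, with -0.60 (SE 0.21, adjusted p = 0.0437). Pik3cg, a phosphoinositide kinase, had -0.53 (adjusted p = 0.0538). All 14 fitted values were below 0 in KO, with a median of -0.33 against 0.0237 over all genes, and the list's median in WT was 0. In the same contrast 1 of 9 neutrophil markers fell, Csf3r (-1.38), with Cxcr2 at -0.89 and Mmp9 at -0.76 short of the threshold. Of these 9, 2 were above 0, Ngp and Camp, both at 0.11. Of 7 monocyte markers 3 rose, Ccr2 (2.3), F13a1 (2.12) and Ms4a6c (1.92), where 14.4% of all genes rose. Only 1 of the 7 was below 0, Csf1r at -1.03, which was not called. Ccr2, F13a1 and Ms4a6c were uneven in IMQ-treated KO, with medians of 43, 96 and 27.3 CPM and maxima of 416, 681 and 197 CPM. Their calls were not examined without KO IMQ replicate 1. The part of these markers in the list's values was not tested. The calls of Syk and Prex1 were lost in 13 and 16 of the 20 fits that each left out 1 library, among them KO IMQ replicate 1, without which Syk was at -0.54 (adjusted p = 0.0987) and Prex1 at -0.47 (adjusted p = 0.118). Of 7 other NADPH oxidase genes, 2 were expressed enough to test, Nox1 and its organizer Noxo1, both at means of 1.52 CPM or less in every group, and neither passed.

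Of the 8 genes that supply NADPH through the pentose phosphate pathway and related enzymes, 7 were tested. In KO with IMQ, 3 rose and 1 fell, against 14.4% and 9.04% of all genes. Pgls, the lactonase of the pentose phosphate pathway, rose by 0.65 (SE 0.14, edgeR adjusted p = 0.00751), Rpia, which isomerizes ribose phosphate, by 0.43 (adjusted p = 0.0299) and Idh1, a cytosolic NADP-dependent dehydrogenase, by 0.38 (adjusted p = 0.0318), while Taldo1, a transaldolase, changed by -0.62 (adjusted p = 0.029). In WT, where 2.34% of all genes rose, 1 of the 7 rose, G6pdx, the first enzyme of the pathway, by 0.47 (SE 0.12, adjusted p = 0.0357). Idh1 and G6pdx were named after their values were seen.

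Of 14 genes that handle superoxide and peroxide, 2 rose and 1 fell with IMQ in KO, where 14.4% and 9.04% of all genes did. Prdx1, a peroxiredoxin, rose by 1.26 (SE 0.35, edgeR adjusted p = 0.0183) and Gpx1, a glutathione peroxidase, by 0.36 (SE 0.1, adjusted p = 0.0199), and Gpx4, which reduces lipid peroxides, changed by -0.34 (SE 0.091, adjusted p = 0.0153). In WT, Hmox1, heme oxygenase, rose by 0.47 (adjusted p = 0.0403) and Gpx1 by 0.38 (adjusted p = 0.0446), and none fell, against 3.95% of all genes called there in either direction. Hmox1 was named after its values were seen. The list's median was 0.20 in WT and 0.10 in KO. Gpx1 was thus the only gene of these lists that passed in both genotypes, but its call in WT was lost in 17 of 20 fits that left out 1 library.

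Of 6 transcription factors known to act on oxidase genes, 0 passed with IMQ in WT and 1 in KO, against 3.95% and 23.5% of all genes. Irf8, a factor of monocyte and dendritic cell development, had means of 14 CPM in untreated KO and 43 CPM in IMQ-treated KO, a log2 fold change of 1.62 (SE 0.55, edgeR adjusted p = 0.0413). Without KO IMQ replicate 1, the library with the highest monocyte sum, it was at 0.56 (adjusted p = 0.324), and with a replicate block at 1.25 (adjusted p = 0.104). Irf1, an interferon regulatory factor, had -0.50 (adjusted p = 0.189) and Cebpe, a factor of terminal granulopoiesis, 0.18 (adjusted p = 0.326). None of the genes in these lists passed between genotypes, with or without IMQ, or in the interaction. In the averaged IMQ contrast, added after the values were seen, 18.7% of all genes rose and 14% fell. Of 14 kinases and exchange factors there, 0 rose and 1 fell, Prkca, at -1.77 (edgeR adjusted p = 0.0117). Prkca, at means of 2.39 CPM or less, was named after its values were seen. Of 7 NADPH supply genes 3 rose and 1 fell, of 14 superoxide and peroxide genes 4 and 1, and of 6 transcription factors 0 passed. These averaged calls were not examined with libraries left out.

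**Figure D5:**
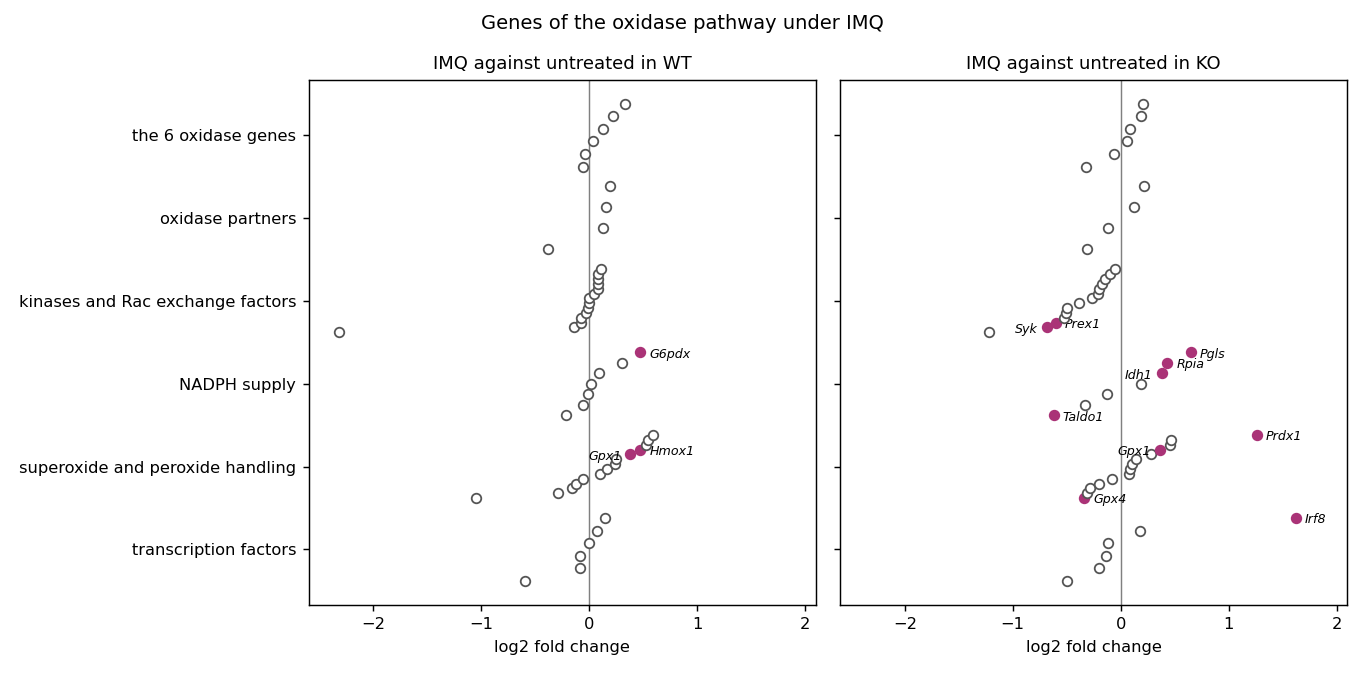
Log2 fold changes with IMQ (x axis) of the genes of each list in WT (left) and KO (right), with filled and named points for those that passed the test. The 6 oxidase genes lie between -0.32 and 0.33 and none is filled, while 3 genes are filled in WT and 10 in KO.

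The list calls with IMQ in WT and in KO were also examined without the libraries that stood apart. Of the 10 genes called in KO outside the 6, 3 remained past the threshold without KO IMQ replicate 1: Pgls at 0.62 (adjusted p = 0.0144), Gpx1 at 0.38 (adjusted p = 0.0213) and Gpx4 at -0.29 (adjusted p = 0.039). Without it, Prdx1 was at 0.63 (adjusted p = 0.0585), Taldo1 at -0.48 (adjusted p = 0.0711), Rpia at 0.35 (adjusted p = 0.0734) and Idh1 at 0.33 (adjusted p = 0.0771). With WT IMQ replicate 3 also left out, 9 of the 10 passed and Irf8 did not (adjusted p = 0.296). Only Pgls passed under every alternative and in every fit that left out 1 library, with log2 fold changes of 0.61 to 0.76 in the latter. Of the 3 genes called in WT, none kept its call in all 20 such fits, and G6pdx, at 0.42 to 0.52 throughout, lost it in 10.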

How the data were processed

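Poly(A) RNA-seq libraries of bone marrow neutrophils from 4 groups of 5 were analysed, grouped by the genotype, treatment and number in their labels. The authors deposited raw counts of reads per gene, without normalization. The submitters' processing notes name STAR 2.7.8a, HTSeq 2.0.1 and mm10, whereas the study's methods name TopHat and RPKM values analysed by analysis of variance. The annotation and strand setting of the counting, and the sequencer used for each library, are not given in the sources used here. Reads on no gene and other summary lines (58% to 62.6% of reads) were left out of library sizes. A table of the whole series held the same counts, with 0 differing values, and was not used.

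The tests were run with edgeR 4.0.16 under R 4.3.3 (TMM factors, 0.854 to 1.38, filterByExpr, 1 quasi-likelihood model of the 4 groups), with Benjamini-Hochberg adjustment over 14030 genes at 0.05. A count model replaced the study's analysis of variance because the files hold counts. The labels do not tie libraries to single mice, so p-values measure the spread between libraries. No 2 libraries of a group were alike within counting noise (chi-square per degree of freedom 18.2 or more). Intervals are 95% intervals of the fit.

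Alternatives were DESeq2 1.42.0, RLE factors, library size only, limma 3.58.1 on log2(CPM + 0.1), no filter, at least 10 counts in every library, only the groups compared, thinning to the smallest library, each library left out, and a replicate block. Removal of both IMQ libraries that stood apart, the addition of Tctn1 to Hvcn1 counts and the averaged IMQ contrast were chosen after seeing the data. Same-numbered libraries correlated in their residuals at 0.128 to 0.426 for IMQ-treated and untreated KO, above 0.1 in all 5 pairs. Only 3 of 5 correlated best with their own number, and the labels do not say that the numbers pair libraries. Pairing was therefore left unsettled, and the replicate block was used as an alternative only. The correlations were 0.0728 to 0.384 in WT, -0.441 to 0.206 between untreated genotypes and -0.497 to 0.343 between IMQ-treated genotypes.

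The 6 genes, the lists and the tests were chosen with earlier results of these data known, and 1 gene of the lists is not reported here. Named were the 6 genes, every oxidase partner, per list the 3 genes with the smallest adjusted p in the contrast with most calls, and per gene the 3 most correlated genes with a mean of at least 10 CPM (prior count 2).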

Additional observations from a re-analysis of the deposited data

Results flagged for a closer look

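Rac2 in WT IMQ replicate 3, at 1420 CPM, lay far from the other 4 libraries of its group, which were at 2310 to 2630 CPM. Its gap to the nearest library exceeded Dixon's 95% critical value for 5 samples, 0.71 of the group's range. It was 1 of 24 combinations of gene and group looked at, and chance alone flags about 1 in 20 such groups. The neutrophil marker sum of this library, 100000 CPM, was the lowest of its group, and its part in the low Rac2 value was not tested.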

How the results depend on the processing

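Over the alternatives, 1010 log2 fold changes of the 6 genes kept their direction and side of the threshold, 17 passed it anew, 7 lost it and 40 changed sign. The number of the 6 genes past the threshold was 0 untreated between genotypes and in the interaction throughout. Leaving out 1 library moved it from 0 to 1 with IMQ in WT, in KO and between IMQ-treated genotypes, and from 1 to between 0 and 2 for the averaged IMQ effect. Without both IMQ libraries that stood apart it was 1 in WT, 2 in KO, 1 between IMQ-treated genotypes and 2 for the averaged effect, for which it was 0 with RLE factors, 0 with no filter, 3 with library size only and 2 with limma. In KO it was 2 with library size only and 2 with limma. The replicate block gave 0 for the averaged effect and changed no other call of the 6 genes. It called 190 genes with IMQ in WT, where 554 were called without it, and 3114 in KO, where 3292 were. The numbers were not shown to pair the libraries in either genotype. In each genotype, 3 of 5 libraries correlated best with their own number. Library size only moved the median of all genes to 0.23 between IMQ-treated genotypes, 0.20 in the interaction and 0.16 with IMQ in KO. With IMQ in WT, Cyba was at -0.04 with library size only and -0.04 with limma (-0.02 to 0.05 leaving out 1 library), and Rac2 at 0.06 without both libraries (-0.13 to 0.07). With IMQ in KO, Ncf1 was at 0.02 with library size only and 0.12 without both libraries (-0.15 to 0.11), and Hvcn1 ranged from -0.02 to 0.17. Between IMQ-treated genotypes, Cybb was at 0.09 with library size only and 0.09 with limma, Cyba at 0.09, 0.09 and, without both libraries, 0.02 (-0.14 to 0.03), Ncf4 at 0.02 and 0.01, and Hvcn1 at 0.15, 0.15 and 0.03 (-0.16 to 0.07). In the interaction, Cybb was at 0.15, 0.15 and 0.04 (-0.09 to 0.06), Ncf4 at 0.04 and 0.04 (-0.16 to 0.02), and Cyba ranged from -0.01 to 0.15. For the averaged effect, Hvcn1 ranged from -0.04 to 0.06 and Ncf1 from -0.01 to 0.12. The causes were not tested. Over all genes, DESeq2 called 1480 with IMQ in WT and 311 between IMQ-treated genotypes (edgeR 554 and 41), no filter 326 in WT, only the groups compared 186, 59 and 16 in WT and between untreated and IMQ-treated genotypes (edgeR 29 between untreated), and removal of both libraries 899 and 1259 in WT and between IMQ-treated genotypes. Of the calls with IMQ in WT, 329 were higher and 225 lower, against 130 and 405 with limma. At means of 228 CPM or more, counting error was small beside the spread between libraries.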
